A study of Mus musculus with 12 samples.

Results

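The SLAM family of surface receptors and their adaptor SAP was described in CD8 T cells of mice knocked out for linker histone H1 genes (Hist1h1c, Hist1h1d and Hist1h1e). The members were the genes whose symbol in the table equalled Slamf1, Slamf6, Slamf7, Slamf8, Slamf9, Ly9, Cd84, Cd48 or Sh2d1a, which gave 9 of 24421 genes. Cd244 is listed there as Cd244a, its current symbol, and was matched by its Entrez identifier, which brought the members to 10. SLAM receptors are immunoglobulin-type proteins of blood cells, and most of them bind the same receptor on a neighbouring cell. Tyrosine motifs in their tails recruit the adaptors SAP and EAT-2, which pass an activating signal on, or phosphatases such as SHP-1, which hold it back. In lymphocytes the family is known for tuning killing by CD8 T and natural killer cells, the help given to B cells and the development of innate-like T cells.

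Splenic CD8 T cells of cTKO mice were compared with those of WT mice, both C57BL/6, with 1 female and 1 male animal per genotype. Each p therefore rests on 2 animals a genotype, and the tests used take the spread of a gene in part from other genes. Linker histone H1 binds DNA between nucleosomes, and the cTKO mice are the study's H1 knockouts. Hist1h1c, Hist1h1d and Hist1h1e had 0 reads in both libraries read as cTKO. In the WT libraries they had 41 and 56, 5 and 11, and 64 and 112 reads. These 3 genes also served to tell which side is cTKO, so their direction is not a check of the knockout. The labels name neither the promoter that drives the deletion nor the age of the animals. The series holds 12 samples in 6 groups of 2, from 3 splenic cell types, and 500000 cells were sorted for each, after which poly(A) RNA was sequenced with paired ends. The B cell and CD4 T cell samples were not analysed here.

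For CD8 T cells the authors deposited the mean of each gene over all 4 libraries, the log2 fold change and its test, and the reads of each library were recovered from these values. The libraries of each genotype are called larger and smaller by their size, were not assigned to an animal, and are given in that order throughout. Recovered genes summed to 13634365 and 9385761 reads in the cTKO libraries and 15203693 and 10267832 reads in the WT libraries. Levels are normalized reads, meaning reads divided by the size factor of the library. Fold changes are read as cTKO over WT, because the 3 H1 genes above are negative, and the opposite reading would turn every direction given. Genes were called higher or lower at an adjusted p under 0.05 in the authors' test. Of the T cell genes that define the sort, Cd8a, Cd8b1 and Cd3e had means of 20303, 31813 and 12041 normalized reads in the authors' deposited table, and Cd4 had 1 and 0 reads in the cTKO libraries and 1 and 4 in the WT libraries. Of 12 listed genes of T cell identity, 11 were found and tested, of which 0 were higher (9.77% of all genes tested were) and 1, Lat, was lower (3.61% of all genes were).

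Except for Sh2d1a, which lies on chromosome X at 42502565 to 42522097 (GRCm38), the members sit together on chromosome 1. In map order these are Cd244a (171558718 to 171585316), Ly9 (171588613 to 171607410), Slamf7 (171632403 to 171653037), Cd48 (171681245 to 171705258), Slamf1 (171767131 to 171801184), Cd84 (171839697 to 171890718), Slamf6 (171917458 to 171948958), Slamf9 (172458569 to 172478421) and Slamf8 (172581377 to 172590873). Ly9, Slamf7 and Slamf8 are read from the minus strand and the others from the plus strand. The positions above are RefSeq gene spans, by which Ly9 and Cd244a do not overlap. In the GENCODE annotation Ly9 and Cd244a overlap on opposite strands, as do Sh2d1a and Tenm1. Slamf7 overlaps the antisense gene Gm37787 and the microRNA gene Mir7683, Slamf6 overlaps the antisense gene Gm37065, and Cd48 overlaps Gm37010. Strand handling is not given in the sources used here, so reads of such pairs cannot be told apart.

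The promoters of 8 members were in the RefSeq table for GRCm38.p6, and Ly9 and Sh2d1a were not matched. Each runs from 250 bases before the start listed there to 50 bases after it. That start need not be the end of the gene span given above. The stretches of Cd244a, Slamf7, Cd48, Slamf9 and Slamf8 lie inside those gene spans. The promoter of Slamf7 is shown because it was the called member. Those of Cd84 and Cd48 are shown because they are abundant members that were not called. Capitals mark matches of the AP-1 motif TGANTCA. In the Slamf7 promoter its first base is 42 bases before the listed start, which lies inside the gene span.
Slamf7, chr1:171648950-171649249, minus strand: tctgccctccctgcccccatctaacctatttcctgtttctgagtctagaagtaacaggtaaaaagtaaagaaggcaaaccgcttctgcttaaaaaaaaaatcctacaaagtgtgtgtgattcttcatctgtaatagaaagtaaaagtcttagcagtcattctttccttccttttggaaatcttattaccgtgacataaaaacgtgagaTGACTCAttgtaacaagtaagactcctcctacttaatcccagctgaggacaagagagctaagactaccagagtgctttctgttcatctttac
Cd84, chr1:171839447-171839746, plus strand: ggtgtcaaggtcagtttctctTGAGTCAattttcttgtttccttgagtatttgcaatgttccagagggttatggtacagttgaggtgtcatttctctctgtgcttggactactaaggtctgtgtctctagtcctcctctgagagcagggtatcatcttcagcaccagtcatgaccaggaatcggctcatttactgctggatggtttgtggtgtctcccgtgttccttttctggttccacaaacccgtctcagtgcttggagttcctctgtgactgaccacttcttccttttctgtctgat
Cd48, chr1:171681742-171682041, plus strand: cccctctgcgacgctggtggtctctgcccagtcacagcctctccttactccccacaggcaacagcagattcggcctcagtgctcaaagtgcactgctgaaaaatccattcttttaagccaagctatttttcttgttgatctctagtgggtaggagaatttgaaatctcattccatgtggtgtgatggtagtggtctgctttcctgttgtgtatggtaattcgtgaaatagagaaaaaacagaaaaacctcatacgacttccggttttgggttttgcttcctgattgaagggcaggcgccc
Both strands were searched, and no motif was masked where it overlapped another. The AP-1 motif was in 4 of the 8 promoters, those of Cd244a, Cd84, Slamf7 and Slamf8, against 7.93% of all 27025 promoters. The T-box motif AGGTGT was in 2 (Cd84 and Slamf1) against 13.9%, the ETS motif GGAAGT in 3 (Cd48, Slamf8 and Slamf9) against 24.1%, the RUNX motif TGTGGTT in 0 against 5.37%, and the TCF1 motif CTTTGAT in 0 against 3.72%. A match is a run of letters and is not a measured binding site, and the called member shared its AP-1 match with 3 members that were not called.

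Of the receptors that bind their own kind, Slamf7 (CRACC), which in natural killer cells signals through EAT-2, had 2471 and 2208 normalized reads in the cTKO libraries, against 693 and 672 in the WT libraries. The 2 genotypes did not overlap, and both cTKO libraries lay more than the whole spread of each genotype above the WT libraries. The means were 2339 ± 187 in cTKO and 682 ± 14.5 in WT cells (SD, n = 2 each), from 2984 and 1777 reads in cTKO and 841 and 582 reads in WT libraries. Slamf7 in the authors' deposited table was higher by 1.78 on the log2 scale (SE 0.30, 95% interval 1.19 to 2.37), a 3.43-fold difference with an adjusted p of 1.8e-07 by DESeq2. It was the 1 member called higher among the 9 that had an adjusted p, against 9.77% of all genes tested, and 0 members were called lower, against 3.61% of all genes (13.4% in either direction). By limma on the recovered reads the log2 fold change was 1.77 and the adjusted p 0.0031. Leaving out any of the 4 libraries kept the log2 fold change between 1.69 and 1.86 but lost the call, with adjusted p of 0.0558 to 0.102 by limma. In bulk RNA, a difference in the number of cells of a type and one in RNA per cell cannot be told apart.

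**Figure D1:**
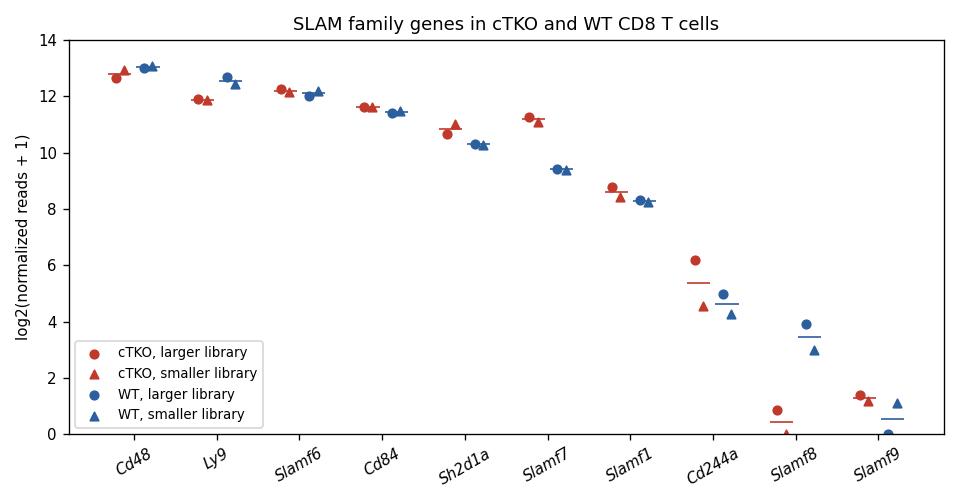
Normalized reads of each member in the cTKO and WT libraries, as log2(normalized reads + 1). Points are single libraries and lines are the means of the 2 values plotted. Slamf7 is 2471 and 2208 in cTKO against 693 and 672 in WT libraries, and Slamf6 is interleaved.

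Ly9 (CD229), a self-binding receptor with tyrosine motifs for SAP, had 3831 and 3752 normalized reads in the cTKO libraries, against 6596 and 5510 in the WT libraries. Both cTKO libraries were below both WT libraries. The difference was -0.68 on the log2 scale (95% interval -1.25 to -0.10) with an adjusted p of 0.107 in the authors' deposited table by DESeq2, so Ly9 was not called. Slamf6 (Ly108), which binds itself and also signals through SAP, had 4888 and 4537 normalized reads in cTKO and 4168 and 4733 in WT libraries, and the genotypes overlapped. Its difference was 0.08 (95% interval -0.48 to 0.65, adjusted p 0.890 by DESeq2) in the authors' deposited table. Cd84, another self-binding receptor, had 3147 and 3153 normalized reads in cTKO and 2756 and 2844 in WT libraries. Both cTKO values were above both WT values by a small step, and the difference of 0.17 (95% interval -0.39 to 0.73, adjusted p 0.756 by DESeq2) was not called in the authors' deposited table. Slamf1 (CD150), a self-binding receptor that is also found on blood stem cells, had 441 and 348 normalized reads in cTKO and 323 and 307 in WT libraries. It was apart in the same direction with a difference of 0.32 (95% interval -0.38 to 1.03, adjusted p 0.607 by DESeq2) in the authors' deposited table.

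Cd48 is held in the membrane by a lipid anchor and is the ligand of Cd244 and, in mice, of Cd2. It had 6398 and 7851 normalized reads in the cTKO libraries, against 8237 and 8783 in the WT libraries. The cTKO values lay below the WT values, and the difference of -0.26 (95% interval -0.83 to 0.32, adjusted p 0.621 by DESeq2) was not called in the authors' deposited table. Its receptor Cd244a (2B4) is best known on natural killer cells and on antigen-experienced CD8 T cells. It was rare, with 87 and 18 reads in the cTKO libraries and 37 and 16 reads in the WT libraries. That is 72.1 and 22.4 normalized reads in cTKO and 30.5 and 18.5 in WT libraries, and the larger cTKO library was 3.22 times the smaller one. The genotypes overlapped, and the difference of 0.95 (95% interval -0.64 to 2.54) had an adjusted p of 0.482 by DESeq2 in the authors' deposited table.

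Slamf8 and Slamf9 lack the tyrosine motifs for SAP and are known mainly from myeloid cells. Slamf8 had 1 and 0 reads in the cTKO libraries, against 17 and 6 in the WT libraries. Its summed level was 22.2-fold higher in WT than in cTKO libraries, with a 95% counting interval of 3.61 to 916 that covers counting error only. The authors' deposited table gives an adjusted p of 0.171 by DESeq2, so it was not called. Slamf9 had 2 and 1 reads in cTKO and 0 and 1 reads in WT libraries and has no adjusted p in the authors' deposited table. These are at the floor of 3 reads, so no fold is given.

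SAP, encoded by Sh2d1a, joins the tails of SLAM receptors to the kinase Fyn, and its loss in humans causes X-linked lymphoproliferative disease. It had 1613 and 2072 normalized reads in the cTKO libraries, against 1266 and 1246 in the WT libraries. The genotypes did not overlap, with means of 1842 ± 325 in cTKO and 1256 ± 14.5 in WT cells (SD, n = 2 each). The difference of 0.55 (95% interval -0.05 to 1.16) had an adjusted p of 0.241 by DESeq2 in the authors' deposited table. Of the 8 members with a mean of at least 10 normalized reads, 4 had both cTKO libraries above both WT libraries (against 29.2% of 11469 such genes) and 2 had both below (against 30.3%). At an unadjusted p under 0.05, 2 of the 9 tested members were lower (Ly9 and Slamf8), against 9.69% of all genes with an adjusted p, and 1 was higher (Slamf7), against 16.6%. The median difference over the 9 tested members was 0.17, and 0.04 over all genes tested.

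**Figure D2:**
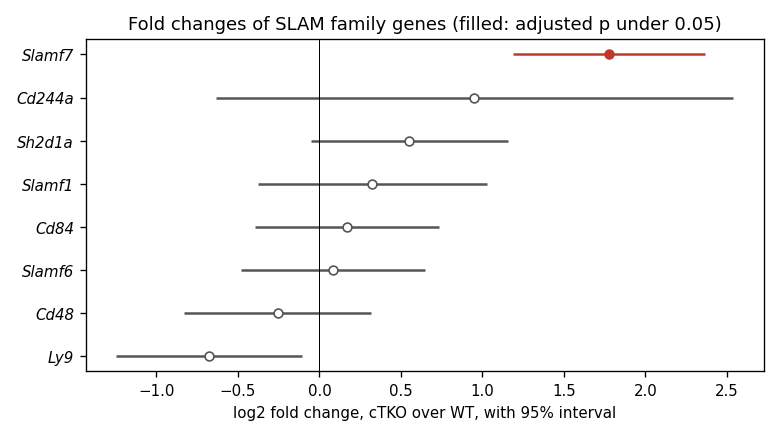
Difference of each member (log2 fold change) with its 95% interval, cTKO over WT. Slamf7 at 1.78 stands clear of 0 and the interval of Ly9, -1.25 to -0.10, does too before adjustment. Slamf8 and Slamf9, with few reads, are left out.

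Divided by the length of their merged exons, Cd48 was the most abundant member in every library, at 5381 and 6603 normalized reads per kilobase in cTKO and 6928 and 7387 in WT libraries. Ly9 followed at 1158 and 1134 in cTKO and 1994 and 1666 in WT libraries. Cd84 (439 to 503 over the 4 libraries) and Slamf6 (385 to 451) had ranges that overlapped, with Cd84 above Slamf6 in each library. Undivided, Slamf6 was above Cd84 in each library. Slamf7 had 540 and 482 normalized reads per kilobase in cTKO and 151 and 147 in WT libraries. By this measure it was above Slamf6 in both cTKO libraries and below Sh2d1a in both WT libraries. The order of Slamf7 and Slamf6 depends on the lengths used, 4577 and 10832 bases. Undivided, Slamf6 had more normalized reads than Slamf7 in every library. Sh2d1a itself had 293 and 376 in cTKO and 230.1 and 226 in WT libraries, Slamf1 49.9 to 71.6 and Cd244a 3.79 to 14.8 over the 4 libraries.

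The split of reads among the receptors was counted within each library. The 9 receptors together had 21251 and 21872 normalized reads in the cTKO libraries, against 22817 and 22876 in the WT libraries. Slamf7 made up 11.6% (95% Wilson interval 11.2 to 12.0) and 10.1% (9.66 to 10.5) of receptor reads in cTKO libraries, against 3.04% (2.84 to 3.24) and 2.94% (2.71 to 3.18) in WT libraries. Ly9 made up 18.0% and 17.2% in cTKO and 28.9% and 24.1% in WT libraries. Cd48 made up 30.1% and 35.9% in cTKO and 36.1% and 38.4% in WT libraries, Slamf6 23.0% and 20.7% in cTKO and 18.3% and 20.7% in WT libraries, and Cd84 14.8% and 14.4% in cTKO and 12.1% and 12.4% in WT libraries. These shares are not independent of each other, since they sum to the whole. Reads of Slamf7 per read of Ly9 were 0.645 and 0.588 in cTKO and 0.105 and 0.122 in WT libraries. Reads of Slamf7 per read of Sh2d1a were 1.53 and 1.07 in cTKO and 0.547 and 0.539 in WT libraries. With 2 libraries a genotype, an exact permutation test of any such value cannot go below 0.333, so no test of a share is given.

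**Figure D3:**
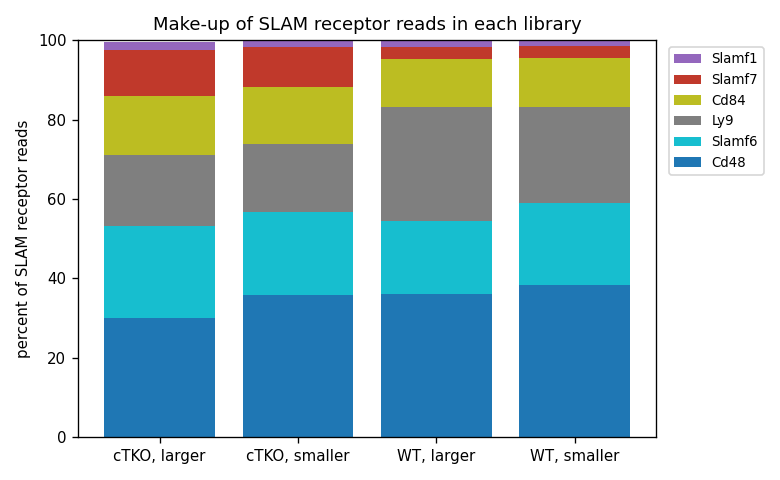
Share of receptor reads taken by each of the 6 most abundant SLAM receptors in each cTKO and WT library, in percent. The Slamf7 block is 11.6% and 10.1% in cTKO and 3.04% and 2.94% in WT libraries, and the other 3 receptors are too small to draw.

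The genes that carry SLAM signals were read as a list of 21, of which 19 had an adjusted p. Of these, 0 were called higher, against 9.77% of all genes tested, and 1 was called lower (5.26%, against 3.61%), a share near that of all genes. The called gene was Ptpn6, which encodes the phosphatase SHP-1 and restrains these receptors. It had 6140.5 and 8541 normalized reads in the cTKO libraries, against 14628 and 13346 in the WT libraries. Both cTKO libraries were below both WT libraries. Ptpn6 fell by 0.93 on the log2 scale (95% interval -1.53 to -0.33) with an adjusted p of 0.0223 by DESeq2 in the authors' deposited table. Ptpn6 lost its call by limma (adjusted p 0.0635), where any 1 library was left out (0.119 to 0.389 by limma) and at a threshold of 0.01. Plcg1 and Plcg2 encode phospholipases downstream of these receptors and were the other 2 with an unadjusted p under 0.05. At that threshold 2 of the 19 were thus higher, against 16.6% of all genes with an adjusted p. The 1 lower gene, Ptpn6, stands against 9.69%. Plcg1 had 5263 and 2491 normalized reads in cTKO and 1774 and 2089 in WT libraries (adjusted p 0.053 by DESeq2 in the authors' deposited table). Plcg2 had 237 and 160.3 normalized reads in cTKO and 89.8 and 90.1 in WT libraries (adjusted p 0.072 by DESeq2 in the authors' deposited table). Both cTKO libraries were above both WT libraries for each of these 2 genes, and both were called after the fold changes were re-centred. Among genes with a mean of at least 10 normalized reads, 29.2% had both cTKO libraries above and 30.3% had both below. By limma their adjusted p was 0.143 for Plcg1 and 0.0954 for Plcg2. Without the larger cTKO library the log2 fold change of Plcg1 was 0.37 by limma, against 1.45 without the smaller one. Cd2, the other receptor for Cd48 in mice, had 8535 and 15207 normalized reads in cTKO and 18310 and 15140 in WT libraries, an overlap. Lck, the kinase that starts T cell receptor signalling, had 26683 and 40113 in cTKO and 57681 and 39632 in WT libraries, also an overlap. Fyn, the kinase that SAP recruits, differed by 0.38 in the authors' deposited table without a call, and its reads per library could not be recovered. The adaptor EAT-2, encoded by Sh2d1b1, had 0 and 2 reads in cTKO and 1 and 1 reads in WT libraries, and its relative Sh2d1b2 had 0 reads in each of the 4 libraries. The median difference of the 19 tested genes was 0.10, against 0.04 over all genes tested.

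**Figure D4:**
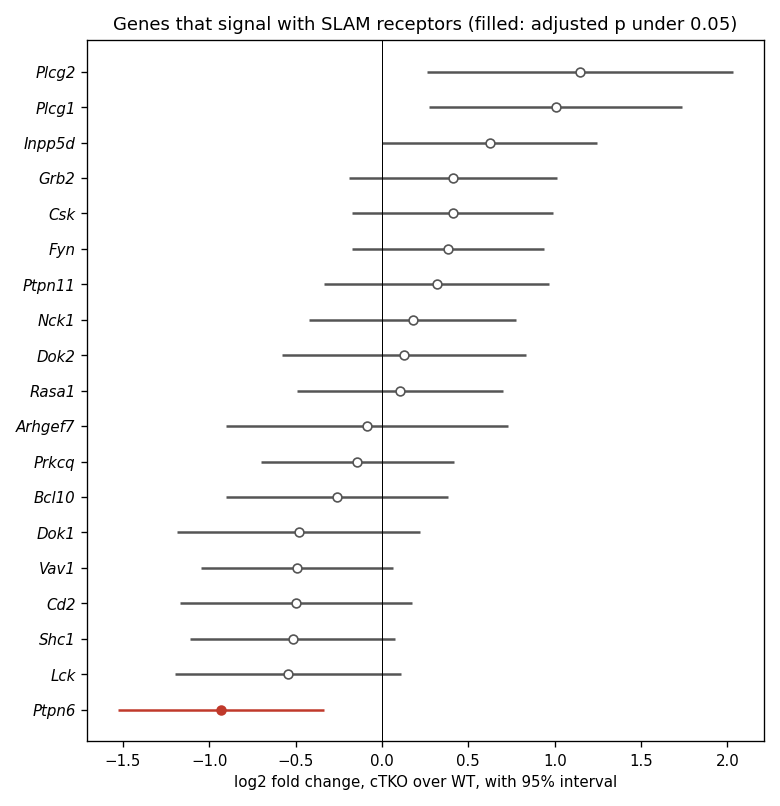
Differences (log2 fold change) with 95% intervals of the SLAM signalling genes with an adjusted p, cTKO over WT. Ptpn6 (-0.93) is the called gene.

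The genes around the members on chromosome 1 were counted to show the surroundings of Slamf7. Within 500 kb of a member there were 53 other genes, of which 31 had an adjusted p. Of these, 0 were called higher, against 9.77% of all genes tested, and 7 were called lower (22.6%, against 3.61%). The median difference of the 31 was -0.59, with 9 positive and 22 negative. Usf1, a basic helix-loop-helix transcription factor gene 140 kb from the nearest member, had 452 and 364 normalized reads in the cTKO libraries and 1388 and 1548 in the WT libraries. It fell by 1.85 with an adjusted p of 3.94e-07 by DESeq2 in the authors' deposited table. Dusp23, a phosphatase gene 39.9 kb from Slamf8, had 9.94 and 8.70 normalized reads in cTKO and 93.9 and 73.9 in WT libraries. It fell by 3.16 with an adjusted p of 0.000224 by DESeq2 in the authors' deposited table. The others called lower were Ppox, of haem synthesis (-1.57), Pex19, of peroxisome assembly (-1.54), Sdhc, of mitochondrial complex II (-1.18), Fcer1g, the Fc receptor gamma chain (-2.70), and Usp21, a deubiquitinase (-0.88), in the authors' deposited table. Of 8 alternatives, the call of Usp21 was kept in 0 and that of each of the other 6 genes in 4 or 5. On chromosome X, Xiap and Stag2 were the 2 tested neighbours of Sh2d1a and were not called, with differences of 1.00 and 0.72 in the authors' deposited table.

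**Figure D5:**
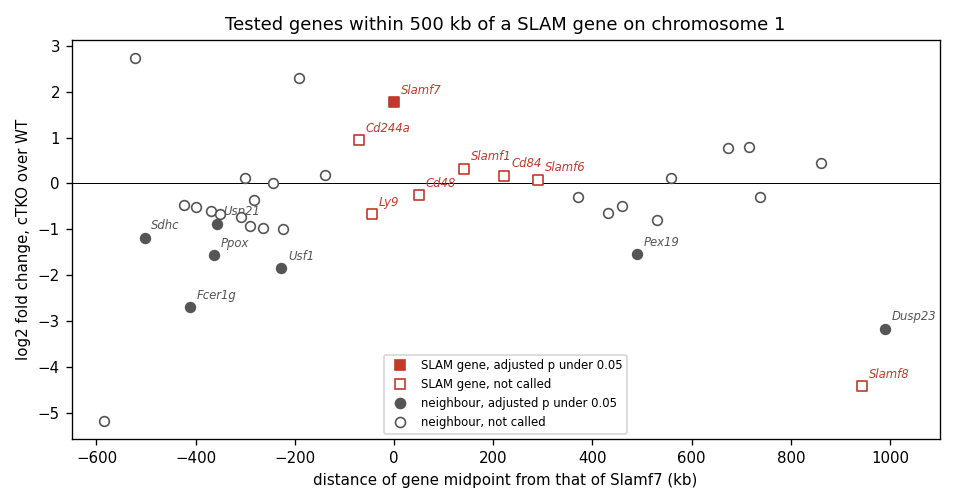
Difference (log2 fold change) of each tested gene within 500 kb of a SLAM member on chromosome 1 against the distance of its midpoint from that of Slamf7 in kb, cTKO over WT. Slamf7 at 1.78 is called higher among neighbours of which 7 are called lower.

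Over the 4 libraries, the genes with the pattern nearest to that of Slamf7 were Tmem106b, Rasl12 and Cdkn2c, by distance of centred log2 values (0.101, 0.149 and 0.155) among 9864 genes with a mean of at least 50. Tmem106b, a lysosomal membrane protein gene, had 2313 and 2088 normalized reads in cTKO and 656 and 687 in WT libraries. Cdkn2c, an inhibitor of cell cycle kinases, had 349.5 and 333 normalized reads in cTKO and 111 and 107 in WT libraries.

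Lists of markers of other cells were counted beside shares of 9.77% higher and 3.61% lower over all genes tested. Of 8 tested natural killer and innate-like T cell genes, 3 were higher (Klra8, Klrb1c and Tyrobp) and 1 was lower (Fcer1g). This list summed to 2023 and 1542 normalized reads in the cTKO libraries against 323 and 291 in the WT libraries. Klrb1c alone held 1330 and 1094 of the cTKO sums and 148 and 137 of the WT sums. In the same list Ncr1 had 22 and 1 reads in cTKO and 2 and 4 reads in WT libraries. The sums of this list leave out Nkg7, whose reads per library were not recovered. The mean of Nkg7, 34767 normalized reads, was far above these sums. Its log2 fold change was 0.16 and was not called (adjusted p 0.792 by DESeq2 in the authors' deposited table). Of 8 tested genes of the myeloid and dendritic cell list, 2 were higher (Itgax and Itgam) and 6 were not called. The log2 fold change was positive for 5 of the 8 and negative for 3. The sums were 2670.2 and 973 in cTKO and 235 and 202 in WT libraries. Itgax alone held 2012 and 632 of the cTKO sums and 46.1 and 50.8 of the WT sums. Cd14, Fcgr1, Clec9a and Siglech had at most 3 reads in every library. Of 8 tested B cell genes, 3 were lower (Cd79b, H2-Aa and H2-Ab1), with sums of 1073 and 328 in cTKO and 1938 and 1679 in WT libraries, and Pax5 had at most 3 reads in every library. The other 5 were not called, among them Cd22, which held most of the larger cTKO sum with 748 and 47.2 normalized reads in cTKO and 171 and 151 in WT libraries. Of 5 tested CD4 T cell genes, 1 was higher (Zbtb7b) and 4 were not called, with sums of 361 and 180.1 in cTKO and 249 and 231 in WT libraries, an overlap. Slamf7 is also expressed by natural killer cells, and the part of these lists in its difference was not tested.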

How the data were processed

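Polyadenylated RNA of sorted CD8 T cells from 2 cTKO and 2 WT mice was sequenced. STAR and DESeq2 and the builds mm10 and GRCm38.p6 are named per the submitters' processing notes, and anything on versions, annotation, counting tool or strand was not given in the sources used here. In the deposited table stand, per the file headers, the authors' mean normalized count (a signal made from reads divided by size factors), log2 fold change and its standard error, test score, p-value and adjusted p-value of 24421 genes. The score deposited by the authors is the log2 fold change over its error (largest difference 2.17e-08). The authors gave an adjusted p to 12972 genes, all with means of at least 3.45. The 26 symbols turned into dates were not named.

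Reads per library were worked back as the whole numbers that return the deposited mean and, in a negative binomial fit after the authors' DESeq2, the deposited fold change. Of 17954 genes with a mean up to 10000, 17845 (99.4%) had 1 solution. From a mean of 1000, libraries of a genotype were taken to differ at most 4-fold. Of 4 pathway genes above 10000, 3 (Ptpn6, Cd2 and Lck) were solved with at most 2.5-fold. In simulated reads, 1073 of 1090 genes with a mean under 1000 and 410 of 410 above had 1 solution, each right. These were modelled on genes already solved and made with the same fit, so they do not test the fit itself. None had a mean above 10000, so the search used for Ptpn6, Cd2 and Lck was not checked. Size factors were 1.21 and 0.805 in cTKO and 1.21 and 0.866 in WT libraries. Intervals of fold changes are the deposited log2 fold change and its standard error at the 95% level and hold the spread the authors' test estimated. Wilson intervals of shares and the interval of Slamf8 cover counting error only.

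limma (version 3.58.1, R 4.3.3) was fitted to log2(normalized reads + 1) of 12675 genes as an alternative. All 10 members, called genes of the pathway list and of the neighbours within 500 kb, and 3 nearest patterns were named. Members and lists were chosen with earlier results of these data known. Tried were a threshold of 0.01, no filter on the mean, re-centred fold changes, limma, and limma without each library.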

Additional observations from a re-analysis of the deposited data

How the results depend on the processing

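No paired analysis was possible because the cTKO and WT samples share no animal number, and the recovered libraries were not assigned to an animal or a sex, so no block by sex was fitted. At an adjusted p of 0.01 there were 824 genes higher and 230 lower (against 1268 and 468), and 0 pathway genes lower. There were 1161 higher and 393 lower with no filter on the mean. Re-centring on the median of genes whose mean was 100 or more (-0.10 on the log2 scale) gave 1484 genes higher and 342 lower and made 2 pathway genes higher (Plcg1, adjusted p 0.027, and Plcg2, 0.0438, from the re-centred fold change over the authors' standard error). limma on the recovered reads called 935 genes higher, 250 lower and 0 pathway genes lower. Leaving out each library in turn with limma gave 190 to 581 genes higher, 2 to 79 lower, 0 members higher or lower, and 0 pathway genes higher or lower. The lone library of a genotype is there assumed to vary like the others. A threshold of 0.01 and no filter on the mean cannot change a fold change. In the counts that follow, 8 of the 9 tested members had no call to lose. For single members, 66 of 72 alternatives kept the direction and the side of the threshold, 4 lost the call of Slamf7, and 2 turned the direction: Cd244a to -0.084 without the larger cTKO library and Slamf6 to -0.0073 without the larger WT library. Their ranges were -0.08 to 1.56 and -0.01 to 0.18. The cause was not tested.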
